A study of Homo sapiens with 4 samples.

Results

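Ephrins and Eph receptors were followed across LNCaP prostate cancer cells and 2 lines made from them that grow in the presence of enzalutamide (ENZ). The genes described are 6 ephrins (EFNA1, EFNA3, EFNA4, EFNA5, EFNB1 and EFNB2) and 4 Eph receptors (EPHA7, EPHB3, EPHB4 and EPHB6), 10 of the 33538 genes in the count matrices and 10 of the 22 genes of the family listed there. They were picked by symbol, with their levels in these libraries already known, so their levels and ratios are a description and no test of them is given. LNCaP is an androgen-responsive line from a prostate cancer metastasis, and ENZ is an anti-androgen drug. The 4 groups were LNCaP cells that received the solvent DMSO (0.1%) over 48 h (LNCaP), LNCaP cells that received 10 µM ENZ for the same 48 h (LNCaP-ENZ48), and 2 ENZ-resistant lines, RES-A and RES-B, held in 10 µM ENZ. RES-A was raised by passaging in rising amounts of ENZ and RES-B under continuous RD-162, a related anti-androgen. Each line was derived once and each group is 1 library of single-cell RNA sequencing, so a difference between libraries cannot be told apart from a difference between cultures or runs.

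Ephrins are ligands that stay attached to the cell surface, and Eph receptors are the receptor tyrosine kinases that bind them on a neighbouring cell. Ephrin-A proteins are held in the membrane by a lipid anchor and mostly bind EphA receptors, whereas ephrin-B proteins span the membrane and mostly bind EphB receptors. Binding signals into both cells, through the receptor (forward) and through the ephrin (reverse), and controls repulsion, adhesion and boundary formation. The system is known for keeping cell populations apart in epithelia and for guiding the growth of blood vessels.

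After filtering the LNCaP library held 1782 cells, LNCaP-ENZ48 held 4315, and the resistant lines held 4569 (RES-A) and 4061 (RES-B), with 50208831 to 60838227 unique molecular identifiers (UMIs, each standing for 1 captured RNA molecule) per library. LNCaP cells were deeper, with a median of 27080 UMIs per cell against 12138 to 13676 in the other libraries. Kept cells of any pair of libraries shared between 2 and 9 barcodes. The luminal prostate markers KRT8, KRT18, HOXB13 and FOLH1 were detected in every library, the lowest at 91.96 counts per 1000000 UMIs (CPM). Of 9 markers of other cell types, PTPRC, COL1A2, KRT5, TP63 and CHGA had 0 UMIs in every library. PECAM1 and DCN had 3 UMIs at most, KRT14 had 15 at most and COL1A1 lay between 1.45 and 3.19 CPM.

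The promoters of EFNA5, EFNB2 and EPHB4 are shown, since these genes differed most between the resistant lines. The sequences are the 250 bases before the RefSeq start site (GRCh38.p14), each read 5′ to 3′ on the gene's own strand, and capitals mark GGGCGG, the GC box, on either strand (CCGCCC). EFNA5 lies on the minus strand of chromosome 5 (gene chr5:107376894-107670937, promoter window chr5:107670938-107671187). EFNB2 lies on the minus strand of chromosome 13 (gene chr13:106489745-106535662, window chr13:106535663-106535912). EPHB4 lies on the minus strand of chromosome 7 (gene chr7:100802565-100827523, window chr7:100827524-100827773).
EFNA5: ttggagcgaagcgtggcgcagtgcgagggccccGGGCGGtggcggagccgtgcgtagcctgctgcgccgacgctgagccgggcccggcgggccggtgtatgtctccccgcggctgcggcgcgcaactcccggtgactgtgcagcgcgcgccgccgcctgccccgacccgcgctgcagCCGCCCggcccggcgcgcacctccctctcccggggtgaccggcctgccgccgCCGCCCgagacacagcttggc
EFNB2: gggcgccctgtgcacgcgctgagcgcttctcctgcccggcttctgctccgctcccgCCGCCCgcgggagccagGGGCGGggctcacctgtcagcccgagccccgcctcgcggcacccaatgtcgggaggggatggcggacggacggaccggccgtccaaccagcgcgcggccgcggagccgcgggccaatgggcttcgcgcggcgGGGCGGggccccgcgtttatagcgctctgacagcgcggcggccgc
EPHB4: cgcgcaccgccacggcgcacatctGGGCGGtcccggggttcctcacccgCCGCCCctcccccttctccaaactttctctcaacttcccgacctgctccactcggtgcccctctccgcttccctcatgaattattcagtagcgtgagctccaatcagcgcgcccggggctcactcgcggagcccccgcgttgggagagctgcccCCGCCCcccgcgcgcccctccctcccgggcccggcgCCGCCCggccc
The EFNA5 window has 79.6% G and C and 41 CpG sites, more GC than 96.3% of the 35114 promoter windows of that length without an undetermined base. EFNB2 has 78.4% and 40 sites, and EPHB4 72.8% and 29 sites, against medians of 58.0% and 11 sites over all windows. The GC box stands 3 times in EFNA5, 3 times in EFNB2 and 4 times in EPHB4, with no overlap between copies, and 42.6% of all windows hold at least 1. The other promoters of the members have 48.0% (EPHB6) to 73.2% (EFNA1) G and C, with 3 windows for EPHA7. No window of a member holds the E-box CACGTG, which 6.35% of all windows hold.

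Levels are summed UMIs of a library's kept cells in CPM, with exact Poisson 95% intervals. The libraries count the 3′ end of each molecule, so a level does not scale with gene length, although capture can differ between genes. Intervals cover counting error only. In such sums, fewer cells that express a gene and less RNA per cell cannot be told apart. The ligands were the abundant side of the family. Where 4 values follow each other, the first is LNCaP, the second LNCaP-ENZ48, the third RES-A and the last RES-B. All 10 genes together gave 192.0, 214.2, 214.8 and 186.2 CPM, of which the 4 receptors made up 13.4, 12.8, 8.27 and 3.61 CPM.

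**Figure D1:**
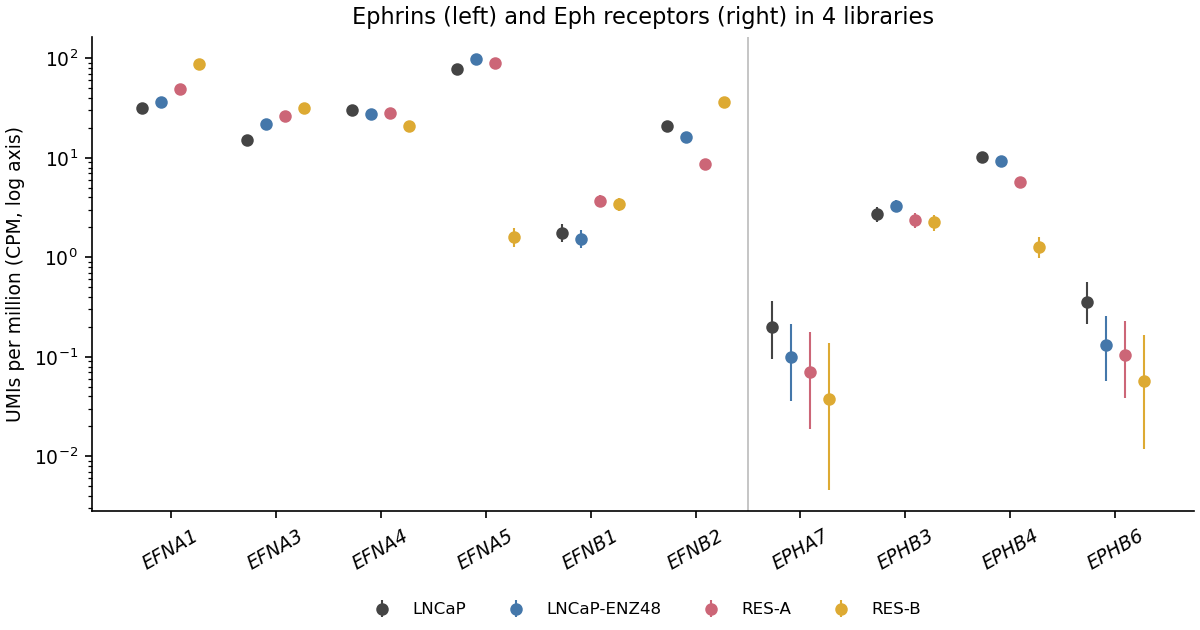
Levels of the 6 ephrins (left of the grey line) and 4 Eph receptors (right) in CPM (log axis), 1 point per library, with exact Poisson 95% intervals. EFNA5 sits near 80 to 100 CPM in 3 libraries and at 1.60 CPM in RES-B, while EFNA1 and EFNB2 are highest in RES-B.

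EFNA5, a ligand with a lipid anchor that repels growing axons and binds most EphA receptors, was the most abundant of the 10 in every library but RES-B. LNCaP had 78.6 CPM and LNCaP-ENZ48 had 97.7, while RES-A had 90.2 and RES-B 1.60 (84 UMIs, 95% interval 1.27 to 1.98). RES-B was thus the only library of the 4 with a low level. The ratio to LNCaP was 1.24-fold in LNCaP-ENZ48 and 1.15-fold in RES-A, both with intervals above 1, whereas RES-B was 49.2-fold lower (log2 ratio -5.62, 95% interval -5.95 to -5.31) and 56.4-fold lower than RES-A. In RES-B the 84 UMIs were spread over 69 cells, with 7 in 1 cell at most. None of the 84 was in the 17 of 4061 RES-B cells whose barcode also occurs in another library. So small a share of cells would be likely to hold none in any case. The source of these UMIs was not tested. Cells of RES-B with EFNA5 held 0 UMIs of PRAC1, a prostate gene chosen after its values were seen, which had 394.2 to 1015 CPM in the other libraries and 2 UMIs in all of RES-B. With so few PRAC1 UMIs in RES-B, these cells too would be likely to hold none in any case.

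EFNB2, a transmembrane ligand known for marking arterial vessels, lay on opposite sides of LNCaP in the resistant lines. Its level was 20.9 CPM in LNCaP and 16.2 in LNCaP-ENZ48, against 8.74 in RES-A and 36.4 in RES-B. RES-A was thus the lowest library and RES-B the highest, and each step in that order exceeded the counting error. Relative to LNCaP it was 1.29-fold lower in LNCaP-ENZ48 (log2 ratio -0.37, -0.49 to -0.24), 2.39-fold lower in RES-A (-1.26, -1.41 to -1.10) and 1.74-fold higher in RES-B (0.80, 0.69 to 0.91). Between the resistant lines the gap was 4.16-fold. EFNB1, on the X chromosome and known as the gene of craniofrontonasal syndrome, was scarce, with 1.77, 1.55, 3.70 and 3.40 CPM. The resistant lines were higher than both LNCaP libraries, and neither the resistant pair nor the LNCaP pair differed within itself beyond counting error. The ratio of RES-A to LNCaP, 2.09-fold, lay below 2-fold with every barcode kept (log2 0.98), and at log2 0.53 with every cell thinned to 5000 UMIs. The interval of that thinned ratio, -0.18 to 1.30, included 0.

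EFNA4, EFNA3 and EFNA1 are 3 ligands with lipid anchors that lie side by side on the plus strand of chromosome 1, within chr1:155063737-155134899. EFNA1, first known as a gene induced by TNF in endothelium, had 31.5, 36.3, 49.3 and 88.2 CPM, so each library stood above the one before it. RES-B was 2.80-fold higher than LNCaP (log2 ratio 1.48, 1.40 to 1.57) and RES-A 1.56-fold higher (0.64, 0.56 to 0.73). The small excess in LNCaP-ENZ48 (0.20) turned to -0.06 when every cell was thinned to 5000 UMIs, so its direction depends on how cells are weighted. EFNA3 followed the same order, with 15.3, 22.1, 26.1 and 32.0 CPM, and its ratio to LNCaP in RES-B was 2.09-fold (1.07, 0.94 to 1.19). That ratio lay just under 2-fold with TMM scaling (log2 0.96) or DESeq2 size factors (0.97). EFNA4 was lowest in RES-B, with 30.6, 27.7, 28.5 and 21.0 CPM, and was 1.45-fold lower in RES-B than in LNCaP (-0.54, -0.65 to -0.43). In the order of its levels, RES-A differed beyond counting error neither from LNCaP above it nor from LNCaP-ENZ48 below it. The gene model AL691442.1 (chr1:155063748-155086807) overlaps both EFNA4 and EFNA3 on the same strand and had 0 UMIs in every library. Cell Ranger counts only reads that fit 1 gene, so the levels of EFNA4 and EFNA3 are uncertain.

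Of the genes beside this cluster, SLC50A1 shared the order of EFNA1 and ADAM15 did not. ADAM15, a membrane protease just upstream of EFNA4, had 67.6, 76.1, 146.2 and 86.0 CPM, with its highest level in RES-A. SLC50A1, a sugar transporter that starts just downstream of EFNA1, had 75.0, 90.3, 96.3 and 127.0 CPM, with a log2 ratio of 0.76 in RES-B, where EFNA1 had 1.48. DPM3 and KRTCAP2, which lie further downstream on the other strand, had log2 ratios of 0.27 and 0.08 in RES-B. DCST2, on the upstream side, had 61, 87, 83 and 52 UMIs, and DCST1 had 6 at most.

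Among the receptors, EPHB4, the venous receptor for ephrin-B2, was the most abundant in LNCaP. It had 10.1, 9.22, 5.72 and 1.27 CPM, the last from 67 UMIs. Both resistant lines were thus below both LNCaP libraries, which did not differ from each other beyond counting error. Relative to LNCaP it was 1.77-fold lower in RES-A (log2 ratio -0.82, -1.03 to -0.62) and 7.94-fold lower in RES-B (-2.99, -3.38 to -2.62). RES-B therefore combined the highest level of EFNB2 with the lowest level of EPHB4. EPHB3, a receptor known for sorting cells along the intestinal crypt, had 2.71, 3.30, 2.37 and 2.24 CPM. Every interval of its CPM ratios included 0 (in RES-B against LNCaP -0.64 to 0.10). With TMM scaling the interval of the ratio to LNCaP lay above 0 in LNCaP-ENZ48 (0.06 to 0.71) and below 0 in RES-B (-0.75 to -0.01).

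EPHB6, whose kinase domain is inactive, and EPHA7, a receptor for A-type ephrins, were close to the limit of detection. EPHB6 had 18, 8, 6 and 3 UMIs in the 4 libraries, and its log2 ratios to LNCaP had wide intervals below 0 (in RES-B -5.06 to -0.88). EPHA7 had 10, 6, 4 and 2 UMIs, and only its ratio in RES-B had an interval below 0 (-5.62 to -0.16). Both were called at least 2-fold lower in all 3 comparisons with LNCaP, on counts too small to place the size of the ratio.

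**Figure D2:**
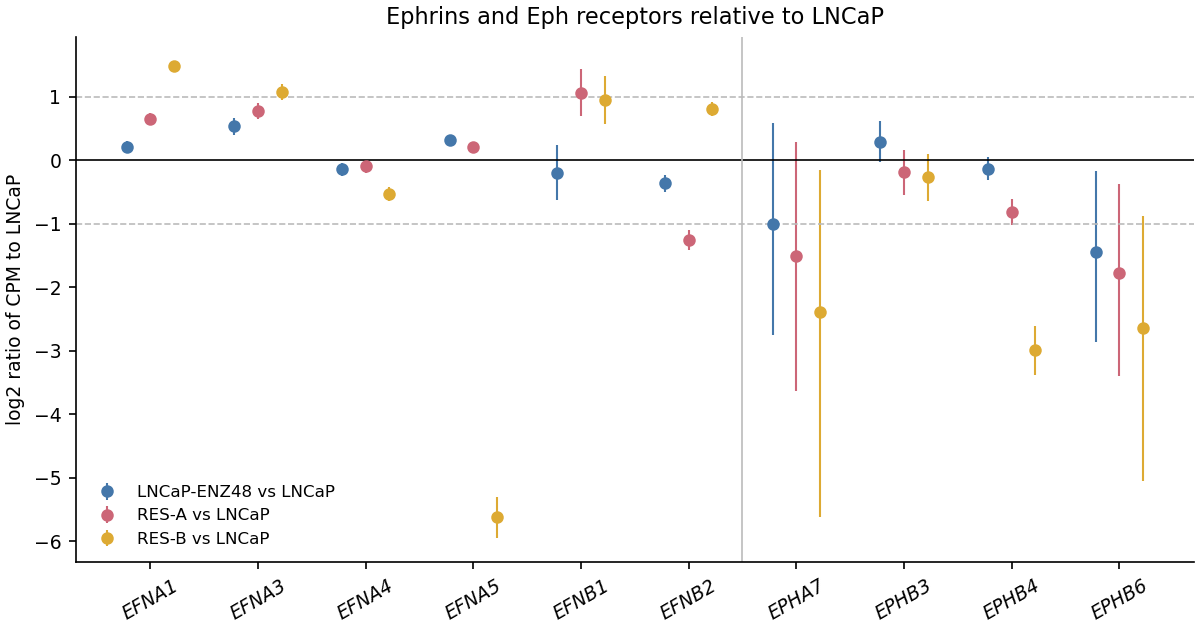
Log2 ratio of CPM to LNCaP for each gene (1 point per comparison, 95% counting intervals), with dashed lines at a 2-fold difference. EFNA5 (-5.62) and EPHB4 (-2.99) lie far below 0 in RES-B alone, EFNB2 lies on opposite sides of 0 in RES-A and RES-B, and EPHA7 and EPHB6 have intervals several units wide.

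Counting ratios of at least 2-fold, LNCaP-ENZ48 had 0 of the 10 higher and 2 lower than LNCaP (EPHA7 and EPHB6). Over all genes with a UMI in either library the share past 2-fold was 19.0%, and over the 7554 genes with at least 10 CPM in either library it was 0.94%. The shares over all genes with a UMI, here and below, include genes with 1 UMI in 1 library and 0 in the other. Such genes pass 2-fold because 0 is set to 3 UMIs, in the direction opposite to their UMIs, which raises these shares. In RES-A 1 was higher (EFNB1) and 3 were lower (EFNB2, EPHA7 and EPHB6), where the shares over all genes were 32.0% and, from 10 CPM, 9.79%. RES-B had 2 higher (EFNA1 and EFNA3) and 4 lower (EFNA5, EPHB4, EPHA7 and EPHB6), with shares of 30.2% and 9.49%. In RES-B against RES-A 1 was higher (EFNB2) and 2 were lower (EFNA5 and EPHB4), with shares of 26.1% and 6.25%. The median log2 ratio of the 10 genes was -0.14, -0.15, -0.40 and -0.28 in these comparisons, beside medians of -0.08, 0.02, 0.12 and 0.09 over all genes from 10 CPM. The first 3 comparisons share the LNCaP library. Because the genes were chosen with these contrasts known, nothing is read from the counts.

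The sums by class show which side of the system carried the RNA. The 4 listed ephrin-A genes summed to 155.9, 183.8, 194.1 and 142.9 CPM, so RES-B held 142.9 CPM with almost no EFNA5. In RES-B 88.2 of those came from EFNA1, whereas in LNCaP EFNA5 gave 78.6 of 155.9. The 2 listed ephrin-B genes summed to 22.6, 17.7, 12.4 and 39.8 CPM, and the 3 listed EphB receptors to 13.2, 12.7, 8.20 and 3.58 CPM. RES-B was highest for the B-type ligands and lowest for the B-type receptors. Over the whole family, the 8 ligands gave 180.8, 205.7, 207.8 and 183.3 CPM and the 14 receptors 34.1, 34.5, 34.2 and 20.8 CPM, so the receptor sums of 3 libraries had overlapping intervals and RES-B was lower.

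Of the other 12 ephrins and Eph receptors only EPHA6 reached 10 CPM in a library. EPHA6, an EphA receptor best known from the nervous system, had 8.19, 7.69, 13.1 and 4.07 CPM and was thus highest in RES-A and lowest in RES-B, a difference of 3.23-fold. EPHA3, a high-affinity receptor for ephrin-A5, was singled out after its values were seen. It had 193, 182, 10 and 0 UMIs. RES-A was 22.04-fold lower than LNCaP. RES-B was 67.4-fold lower with its count of 0 set to 3 UMIs (log2 ratio -6.07, upper end of the interval -5.76). EFNB3, also singled out afterwards, had 2.23, 4.24, 1.15 and 0.685 CPM, so both resistant lines were below both LNCaP libraries. EPHA1, EPHA2, EPHA10 and EPHB2 lay between 0.97 and 6.45 CPM, and EFNA2, EPHA4, EPHA5, EPHA8 and EPHB1 had 4 UMIs at most. The listed genes are not the most abundant of the family, since EPHA7 (0.199 CPM at most) and EPHB6 (0.359) are among them and EPHA6 is not.

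To compare shares of cells at 1 depth, every kept cell was thinned to 5000 UMIs, and none had fewer. EFNA5 was found in 31.1%, 35.4%, 36.6% and 0.714% of cells, with exact binomial 95% intervals of 29.0 to 33.4 in LNCaP and 0.479 to 1.02 in RES-B. Without thinning the shares were 78.2%, 65.1%, 64.9% and 1.70%. Poisson counting at the same mean would give 32.9%, 38.6%, 37.8% and 0.809%, which lies outside the interval of the measured share in LNCaP-ENZ48 alone. The variance of EFNA5 across thinned cells was 1.14, 1.23, 1.09 and 1.30 times the mean. EFNA1 was found in 16.9%, 16.1%, 22.3% and 35.3% of thinned cells (unthinned 55.1%, 37.8%, 44.8% and 63.6%), EFNA3 in 6.45%, 10.5%, 12.1% and 14.97% (33.8%, 25.9%, 26.7% and 33.0%), and EFNA4 in 14.3%, 12.1%, 13.4% and 9.68% (53.9%, 31.6%, 29.8% and 23.4%). The Poisson share of EFNA1 in RES-B was 37.4%, above the interval of its measured share (33.8 to 36.8). The unthinned shares of LNCaP come from its deeper cells.

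EFNB2 had a similar excess of variance at lower levels. It was found in 9.60%, 7.21%, 3.63% and 15.1% of thinned cells, beside Poisson shares of 10.1%, 7.83%, 3.97% and 16.9%, of which only the last lies outside the interval (13.98 to 16.2), and its variance across thinned cells was 1.10, 1.22, 1.25 and 1.27 times the mean. Unthinned, the shares were 31.9%, 18.01%, 8.89% and 29.9%. In LNCaP the unthinned Poisson share was 44.5% and the variance was 2.34 times the mean, with up to 10 UMIs in a cell. EPHB4 was found in 4.77%, 4.80%, 3.41% and 0.714% of thinned cells (unthinned 24.2%, 12.2%, 6.89% and 1.63%), and its variance lay between 0.98 and 1.03 times the mean. EFNB1 and EPHB3 were each in 0.718% to 1.75% of thinned cells. No cell type that should lack these genes is in the libraries, so the share that free RNA alone would give was not measured.

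**Figure D3:**
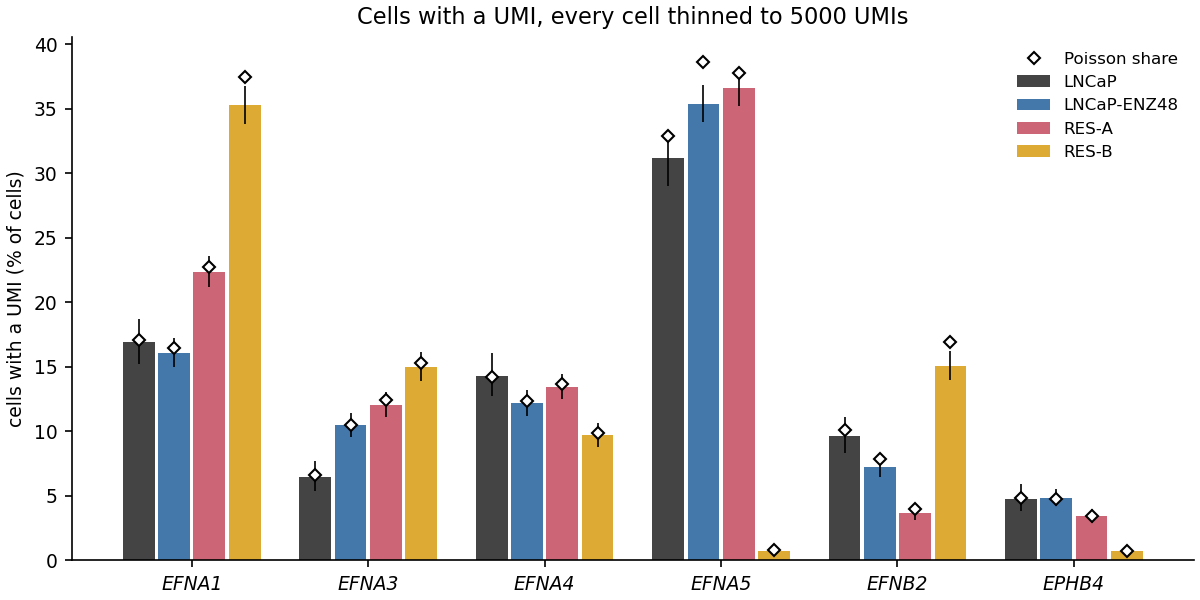
Share of cells with at least 1 UMI of 6 genes, every cell thinned to 5000 UMIs (bars, in percent of cells), with exact binomial 95% intervals and the share that Poisson counting at the same mean would give (diamonds). EFNA5 and EPHB4 reach 0.714% of cells in RES-B. The diamonds of EFNA1 and EFNB2 in RES-B and of EFNA5 in LNCaP-ENZ48 lie above the interval.

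The cell cycle phase was a readout that the choice of genes did not use. Cells were called G1, S or G2/M from published S and G2/M gene lists, and 12.6% (LNCaP-ENZ48) to 20.2% (RES-A) of cells were in G2/M. Levels in G2/M cells relative to G1 cells had medians over all genes of 0.03 to 0.11 (log2). EFNB2 was lower in G2/M in every library, with log2 ratios of -0.62, -0.54, -1.11 and -0.999 and all 4 intervals below 0. EFNA1 was lower in G2/M (-0.51, -0.50, -0.67 and -0.42) and in S (-0.51, -0.69, -0.48 and -0.63) in every library, again with every interval below 0. These are 4 separate libraries, and they gave the same sign for both ligands.

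Other members had phase ratios that varied between libraries. EFNA5 was lower in G2/M in LNCaP (-0.52), LNCaP-ENZ48 (-0.29) and RES-A (-0.15), whereas in RES-B it was higher (0.88, 0.15 to 1.58) on 27 UMIs in G2/M and 52 in G1. EFNA4 was lower in G2/M in RES-A (-0.43) and RES-B (-0.46), and its intervals included 0 in both LNCaP libraries. EPHB4 was lower in G2/M in RES-A (-0.92, -1.43 to -0.44), and its intervals included 0 in the other libraries. EPHB3 was higher in G2/M in LNCaP (0.86, 0.30 to 1.41) and LNCaP-ENZ48 (0.94, 0.42 to 1.43), with intervals that included 0 in RES-A and RES-B. The difference of these ratios between libraries was not tested. In G1 cells alone the log2 ratios of EFNB2 to LNCaP were -1.12 (RES-A) and 0.89 (RES-B), that of EFNA5 was -5.93 in RES-B and that of EPHB4 was -2.76.

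**Figure D4:**
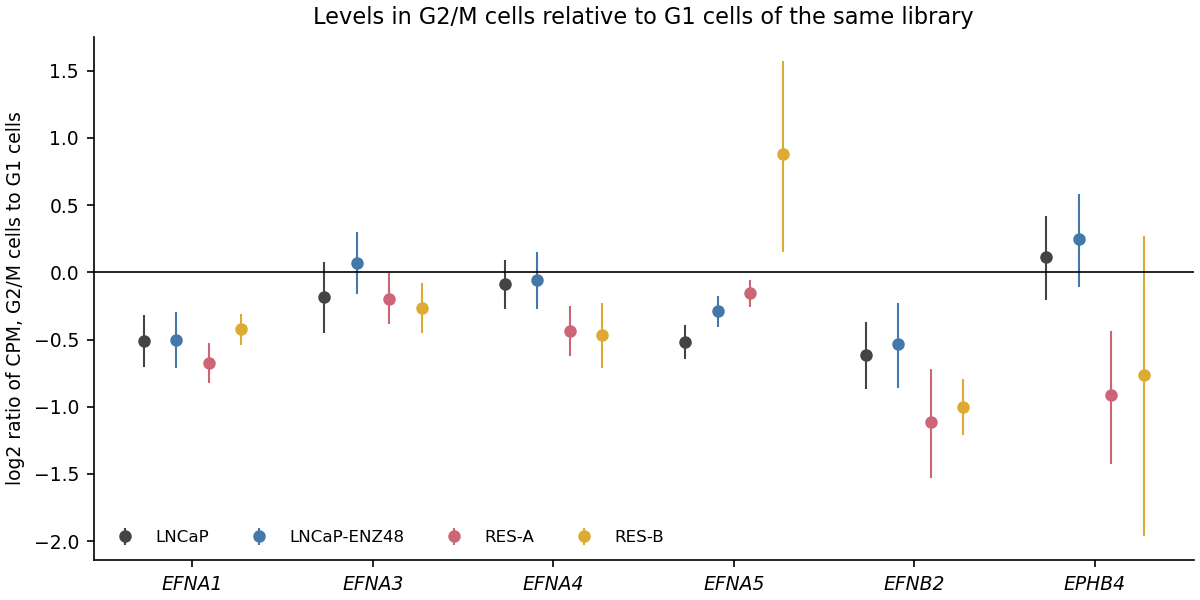
Log2 ratio of CPM in G2/M cells to G1 cells of the same library for 6 genes, with 95% counting intervals. EFNB2 and EFNA1 lie below 0 in all 4 libraries, and EFNA5 lies above 0 in RES-B alone, on 27 G2/M UMIs.

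Position along the chromosome was not used to choose the genes either. For each gene the nearest genes with at least 10 CPM in either library were taken, 25 on each side, except that only 19 (RES-A against LNCaP) and 21 (RES-B against LNCaP) such genes lie between EFNB2 and the end of chromosome 13. Around EFNA5 the median log2 ratio of RES-B to LNCaP was 0.14, close to the 0.12 over all genes, and all 50 genes lay above the -5.62 of EFNA5. Around EPHB4 the medians were 0.01 in RES-A and 0.08 in RES-B, and all 50 genes lay above EPHB4 in both lines. The medians around EFNA5 and EPHB4 thus lay far above the values of these 2 genes, which does not exclude a low level of single genes among them. In RES-B against RES-A, 49 of the 50 genes around EFNA5 lay above it.

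Around EFNB2 the picture differed between the lines. In RES-A the 44 genes around it on chromosome 13 had a median log2 ratio of -0.55, against 0.02 over all genes, and 38 of the 44 lay above EFNB2 (-1.26), so EFNB2 was lower than most of a region that was itself low. In RES-B the median there was 0.04 and 5 of the 46 lay above EFNB2 (0.80). Whether the low level of EFNB2 in RES-A goes with the number of copies of chromosome 13 was not tested. Around EFNA1, EFNA3 and EFNA4 the median in RES-B was 0.34, above the 0.12 over all genes, with 0, 3 and 50 of the 50 genes above EFNA1, EFNA3 and EFNA4. Around EPHA7 it was 0.42 in RES-A and 0.50 in RES-B, while EPHA7 itself had 4 and 2 UMIs there.

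**Figure D5:**
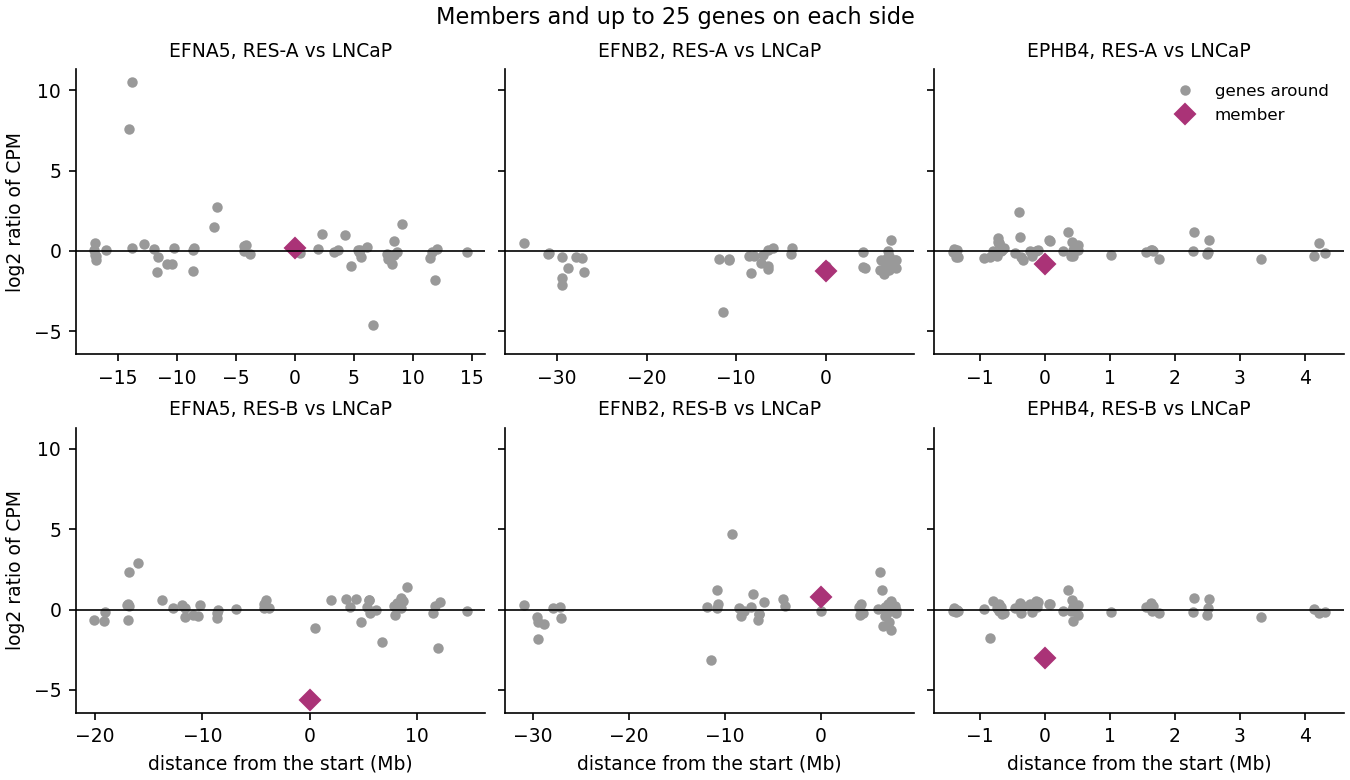
Log2 ratio of CPM to LNCaP (vertical axis) for EFNA5, EFNB2 and EPHB4 (diamonds) and for up to 25 genes on each side with at least 10 CPM (circles, 19 and 21 to the right of EFNB2), by distance along the chromosome in Mb, in RES-A (top) and RES-B (bottom). All 50 genes around EFNA5 and EPHB4 lie above them in RES-B, and the genes around EFNB2 have a median of -0.55 in RES-A.

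The genes most like a member in their levels over the 4 libraries were taken for the 3 members with the widest range, by the distance between centred log2 (CPM + 1) values among 2909 genes with at least 50 CPM in some library. Nearest to EFNA5 were MMP16, a membrane metalloproteinase (distance 1.41, with 34.9, 56.7, 15.3 and 0.533 CPM), PRAC2 (1.85, with 119.8, 141.6, 98.99 and 13.9 CPM) and CBLN2, a synaptic organiser (2.16, with 8.48, 19.5, 80.3 and 0 CPM). All 3 were lowest in RES-B, which the search favours, since the profile of EFNA5 differs mainly there. Nearest to EPHB4 were AL139246.5 (0.30), PHLDA3, a p53 target (0.51, with 69.1, 67.7, 64.3 and 18.8 CPM), and SYCE3 (0.58). For EPHB6 the nearest genes (XPC, CELF1 and ANKRD17, distances 0.05 to 0.08) are nearly flat over the libraries, since a gene under 1 CPM is almost flat on this scale.

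The wider pathway was described with 58 genes of Eph and ephrin signalling, of which 32 to 37 had at least 10 CPM in either library of a comparison. In LNCaP-ENZ48 1 was at least 2-fold higher and 1 lower than LNCaP, 6.25% of 32 where the share over all genes was 0.94%. RES-A also had 1 higher and 1 lower, 5.88% of 34 where the share was 9.79%, and RES-B had 2 higher and 1 lower, 8.11% of 37 where it was 9.49%. The gene that was higher in LNCaP-ENZ48 and RES-A was GRB10, an adaptor that binds activated receptors, with 42.3, 90.6, 101.6 and 39.0 CPM. ARHGEF26, a guanine nucleotide exchange factor, was the lower gene each time, with 83.0, 28.8, 9.16 and 27.5 CPM. VAV3, an exchange factor that Eph receptors recruit, had 29, 31, 91 and 4269 UMIs, which in RES-B is 81.2 CPM and a log2 ratio to LNCaP of 7.14 (6.61 to 7.72). ARHGEF19, another exchange factor, was 2.06-fold higher in RES-B (6.21 to 12.8 CPM), and this ratio lay under 2-fold with TMM scaling or DESeq2 size factors.

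By role, the lists of reverse signalling (5 genes), of proteases and turnover (7) and of phosphatases and inhibitors (7) had none past 2-fold in any comparison among the 2 to 4 genes of each with at least 10 CPM. The differences named above were among the exchange factors and the adaptors and cytoplasmic kinases. In RES-B against RES-A, PIK3R1 (a subunit of PI 3-kinase), VAV3 and ARHGEF26 were higher and GRB10 was lower, 11.4% of 35 genes where the share over all genes was 6.25%.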

How the data were processed

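The deposited values are UMI counts per gene and cell barcode. Per the labels, the authors made them with Cell Ranger 3.0.2 on GRCh38, from droplet-based 3′ libraries, and each matrix holds the barcodes called as cells. Groups came from the sample titles. Cells were filtered with the study's limits: 3000 to 7000 genes, 16000 to 50000 UMIs and under 15% mitochondrial UMIs in LNCaP, and 1500 to 5000 genes and 5000 to 25000 UMIs elsewhere, with under 15% (LNCaP-ENZ48), 17% (RES-A) and 20% (RES-B). The LNCaP cells are thus larger by construction too. This kept 14727 of 17233 barcodes. Doublets were not removed, and an alternative left out the 5% of cells with the most UMIs in each library.

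UMIs were summed per library and given as CPM. Log2 ratios have exact conditional binomial (Clopper-Pearson) 95% intervals, and a count of 0 was set to 3 UMIs per library. With 1 library per group no test was run, and the test over cells that the study used was left out because cells are not replicates. Phases were called with scanpy 1.11.5 on cells thinned to 5000 UMIs, with levels from all UMIs of those cells. Coordinates came from GENCODE 44, matched by gene ID (33113 of 33538), and promoters from RefSeq, where all 10 genes matched. Other scalings used edgeR 4.0.16 (TMM) and DESeq2 1.42.0. The ratios and intervals were tested on simulated data. The members, the lists and the pathway genes were chosen with earlier results of these data known. The rule named all 10 members, other family genes with at least 10 CPM, pathway genes past 2-fold in RES-A or RES-B, the nearest genes by profile and the genes beside the EFNA cluster. Exceptions are said to be chosen after their values were seen. Some marker, motif and pathway results are not reported here.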

Additional observations from a re-analysis of the deposited data

Results flagged for a closer look

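EFNA5 and EFNB2 lay on opposite sides of LNCaP in the resistant lines. For EFNA5 the log2 ratio to LNCaP was 0.2 in RES-A but -5.62 in RES-B, and for EFNB2 it was -1.26 in RES-A but 0.8 in RES-B. Each line is 1 library, so the difference was not tested.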

How the results depend on the processing

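No paired analysis was possible because each group is 1 library. Of 280 alternative log2 ratios of the members (40 ratios under 7 alternatives), 272 kept their sign, 8 changed it and 16 crossed the 2-fold mark. The ratio past 2-fold that reversed was EPHA7 in RES-B against LNCaP, which was 0.40 with cells thinned to 5000 UMIs. There LNCaP had 1 UMI and RES-B had 0, which was set to 3, so the sign comes from that floor. The median of the 10 members in RES-B against LNCaP was then 0.19 in place of -0.40, and it too depends on that floored ratio.

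The count of members at least 2-fold lower in LNCaP-ENZ48 was 1 in place of 2 with every barcode, with 1 filter for all libraries, with TMM scaling and with DESeq2 size factors. In RES-A the count higher was 0 in place of 1 with every barcode, with 1 filter and with thinned cells. In RES-B it was 1 in place of 2 with TMM scaling and with DESeq2 size factors, and in RES-B against RES-A the count lower was 4 in place of 2 with every barcode and with 1 filter, where EPHA7 and EPHB6 joined. Pathway genes in RES-B were 1 higher and 2 lower with TMM scaling and with DESeq2 size factors, and 1 higher with thinned cells.

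The minimum level set the shares of all genes past 2-fold. From 1 CPM they were 1.98% in LNCaP-ENZ48, 17.1% in RES-A, 15.1% in RES-B and 10.95% in RES-B against RES-A, and from 1 UMI 19.0%, 31.96%, 30.2% and 26.1%. From 1 CPM the pathway genes higher were 2 in LNCaP-ENZ48 and 5 in RES-A and in RES-B, and 2 were lower in RES-A and in RES-B against RES-A. From 1 UMI they were 4 higher and 3 lower in LNCaP-ENZ48, 8 higher and 2 lower in RES-A, 7 higher in RES-B and 3 lower in RES-B against RES-A. Some of these counts hold genes that the floor of 3 UMIs puts on the side opposite to their UMIs. ARHGEF15, with 0 UMIs against 1 in LNCaP, counted as higher in LNCaP-ENZ48, RES-A and RES-B. PTPRO, with 1 UMI against 0 in LNCaP, counted as lower in LNCaP-ENZ48. From 50 CPM 1 pathway gene was higher in RES-B. TMM scaling moved the median of all genes by 0.10 in LNCaP-ENZ48 and -0.11 in RES-B against LNCaP, and the share of higher genes among those past 2-fold went from 22.5% to 32.8% and from 60.7% to 50.7%. Shares of cells depend on the depth to which cells are thinned, and with every barcode of at least 5000 UMIs all 40 stayed within their intervals. Depth limits EPHA7 and EPHB6, whose sizes of difference cannot be placed.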

Other observations

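Within each library, cells with and without a UMI of a member were compared after thinning to 5000 UMIs, over genes with at least 20 CPM in every library used. The genes named were chosen after their values were seen, and cells of 1 library are not replicates. Cells with EFNB2 (166 to 612 per library) had lower levels of proliferation genes in all 4 libraries, with log2 ratios for MKI67 of -0.59, -1.22, -0.72 and -0.88 (in LNCaP, LNCaP-ENZ48 and the lines RES-A and RES-B), and for UBE2C of -0.67, -0.40, -0.88 and -1.37. Cells with EFNA1 (301 to 1433 per library) had lower MKI67 as well, at -0.48, -0.54, -0.61 and -0.35. In LNCaP, LNCaP-ENZ48 and RES-A, cells with EFNA5 had lower CDC20 (-0.50, -0.55 and -0.41), and RES-B had too few such cells to compare. The phase ratios above come from the same cells, so this is not a separate result. On the higher side the values were smaller. For EFNB2 the gene with the highest minimum over libraries was PLA2G16 (0.29 to 0.50), and for EFNA1 it was VGLL4 (0.23 to 0.31).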
